A study of Mus musculus with 48 samples.

Results

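The DNA replication genes described here are 41 named genes that act at the origins and forks of chromosome duplication, followed through early B-cell development in the mouse and through loss of Ikaros, a DNA-binding zinc-finger protein and the product of Ikzf1. They were taken by name from a table of 21025 gene rows per library. A total of 36 of the 41 are listed under those names, and these 36 make up the counts below. The other 5 (ORC1, ORC2, ORC3, ORC6 and CDC45) are listed under older symbols, were matched through their RefSeq accessions, and are described apart from the counts.

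Replication begins when the origin recognition complex, CDC6 and CDT1 load the ring of MCM2 to MCM7 onto DNA. Cyclin E with its kinase, together with CDC45, the GINS complex and MCM10, turns the loaded ring into an active helicase, after which the polymerases, the sliding clamp PCNA, its RFC loader, the single-strand binding protein RPA and the enzymes that join lagging-strand fragments copy both strands. Many of these genes are transcribed as cells leave G1 under E2F control, and in the B lineage large cycling precursors give way to small resting pre-B cells. Ikaros is known as a regulator of proliferation and differentiation in early lymphocytes.

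The series holds 48 samples, of which 30 are RNA-sequencing libraries from C57BL/6 mice; the other 18 were not analysed here. The libraries labelled pre-pro-B carry the genotype Ebf1(-/-), lacking the factor needed to enter the B lineage, and comprise 4 with the Ikzf1 hairpin Ik4056, 4 with the Ikzf1 hairpin Ik2709, 4 with the control hairpin Ren713 and 4 with an empty vector. These pre-pro-B cells were cultured. The 2 pre-B libraries are from wild-type mice and are labelled pre-B (total), so the label does not separate large from small cells. Pro-B cells were profiled in 3 settings with 2 Ikzf1-deleted and 2 control libraries each: a population called c-Kit high, after the stem-cell factor receptor that marks early precursors, pro-B cells of Rag2(-/-) mice, which cannot rearrange antibody genes, and pro-B cells with neither restriction, called total pro-B cells below. Deleted cells carry Ikzf1(fl/-) Cd79a(Cre/+) and controls Ikzf1(fl/+) Cd79a(Cre/+). The controls thus also carry Cre, expressed from the B-lineage gene Cd79a, and 1 floxed allele, whereas the pre-B cells carry neither. Stage and genotype cannot be told apart in comparisons with pre-B cells. Library numbers also set the total pro-B controls apart from the pre-B libraries and the c-Kit-high controls. Library series is therefore a further difference in those comparisons. Of the c-Kit-high controls, library 1 is numbered close to the pre-B libraries and library 2 is not. The labels do not say whether libraries of a group came from separate animals, so the p-values measure the spread between these libraries, which may be technical. In bulk RNA, fewer cycling cells and less RNA of a gene per cell cannot be told apart.

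Levels are given as RPKM, which scales reads by gene length and library depth, so levels of different genes can be compared. In 26 libraries the low values were whole multiples of 1 read and implied depths of 2.3 M to 36 M reads, M standing for mega. The other 4, both pre-B libraries among them, showed no single step, and their depth is unknown. Tests used limma on log2(RPKM + 1), which understates changes of low genes, with a Benjamini-Hochberg adjusted p under 0.05 over all genes tested as the call. Ikzf1 itself was at 45.3 and 48.9 RPKM in deleted and 59.2 and 56.4 RPKM in control total pro-B cells. It was at 64.5 and 86.0 against 101 and 124 RPKM in c-Kit-high cells and at 39.9 and 36.7 against 62.3 and 56.2 RPKM in Rag2-null cells. With either Ikzf1 hairpin it was at 23.7 to 60.6 RPKM, against 106 to 145 RPKM with either control. The fall was not called in total pro-B cells (-0.29 ± 0.14, adjusted p = 0.1782). It was called in c-Kit-high and Rag2-null cells and with the hairpins. The RPKM values sum over every exon, so loss of a single one may go unseen. The B-lineage gene CD79A lay between 213 and 1397 RPKM in every pro-B and pre-B library and at 0.196 RPKM or less in every pre-pro-B library, and IL2RA, a marker of pre-B cells, was at 93.8 and 90.9 RPKM in the pre-B libraries and at 1.35 RPKM or less in every pro-B library.

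Promoters are shown first because the replication genes moved together between stages, and E2F-type octamers are the sequence feature this group is known for. The 250 bases before the annotated start were read from RefSeq promoters of build GRCm38.p6, which held 33 of the 41 genes, and were searched on both strands for TTTCCCGC, TTTGGCGC, TTTCGCGC and TTTGCCGC; matches may overlap each other. At least 1 match lay in 7 of the 28 genes with a promoter that are listed by name (25%), CDC6, GINS3, MCM5, MCM6, MCM7, POLA1 and RFC3, and, with the 5 genes under older symbols added, in 9 of 33 (27.3%), the other two being ORC1 and ORC3, whereas 583 of 27025 genes in the table (2.16%) held one. The promoters of CDC6, MCM5 and MCM6 illustrate 1, 2 and 3 matches, and that of POLD1, the gene with the smallest difference between pre-B and pro-B cells, holds none. All are printed 5′ to 3′ on the gene's strand, ending at the base before the start, with matches in capitals.
CDC6, chr11:98907901-98908150, + strand: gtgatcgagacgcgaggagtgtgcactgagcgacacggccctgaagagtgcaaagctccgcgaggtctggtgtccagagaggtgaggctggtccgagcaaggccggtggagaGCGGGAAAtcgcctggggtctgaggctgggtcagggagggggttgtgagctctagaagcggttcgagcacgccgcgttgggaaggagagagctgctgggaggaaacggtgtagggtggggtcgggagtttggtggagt
MCM5, chr8:75109259-75109508, + strand: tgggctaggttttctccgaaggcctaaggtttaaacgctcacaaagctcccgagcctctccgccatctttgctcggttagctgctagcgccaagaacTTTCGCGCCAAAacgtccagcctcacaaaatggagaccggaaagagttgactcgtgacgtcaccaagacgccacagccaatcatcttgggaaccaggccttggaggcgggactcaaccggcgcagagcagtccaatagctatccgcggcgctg
MCM6, chr1:128359706-128359955, - strand: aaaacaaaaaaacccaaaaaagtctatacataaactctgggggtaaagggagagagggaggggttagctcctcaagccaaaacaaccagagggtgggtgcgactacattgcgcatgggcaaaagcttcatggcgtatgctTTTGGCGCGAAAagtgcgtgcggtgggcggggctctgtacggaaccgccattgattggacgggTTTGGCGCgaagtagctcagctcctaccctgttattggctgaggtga
POLD1, chr7:44548816-44549065, - strand: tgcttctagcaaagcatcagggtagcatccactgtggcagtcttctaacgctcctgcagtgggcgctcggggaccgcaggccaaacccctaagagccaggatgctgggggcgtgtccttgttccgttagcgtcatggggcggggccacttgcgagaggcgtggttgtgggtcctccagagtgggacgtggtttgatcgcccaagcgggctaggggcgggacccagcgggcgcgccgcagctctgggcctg
The CDC6 match begins 138 bases before the start. In MCM5 the TTTCGCGC match begins at 153 bases and overlaps a TTTGGCGC match on the other strand at 149 bases. MCM6 holds the same overlapping pair at 110 and 106 bases and another match at 47 bases. A match describes these letters and is neither a shown binding site nor a cause of any difference below, and the absence of one says only that these letters are not in this window. The promoters of CCNE1, TYMS and MCM10 hold no match either. These genes were among those with the largest differences between pre-B and total pro-B cells, so POLD1 is not typical of genes without a match.

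Levels in control total pro-B cells set the scale (mean ± SD, n = 2). The clamp PCNA was the highest of the 36 at 367 ± 14 RPKM, followed by the helicase subunits MCM3 at 303 ± 5.22 and MCM2 at 272 ± 2.53 RPKM. The lowest were POLE2, an accessory subunit of the leading-strand polymerase, at 11.5 ± 0.462 RPKM, the second E cyclin CCNE2 at 12.1 ± 2.25 RPKM and GINS3 at 12.4 ± 1.37 RPKM. Subunits of one complex were not equally abundant. Within the MCM ring MCM4 was lowest at 140 ± 1.53 RPKM. Within GINS the range ran to 79.1 ± 5.73 RPKM for GINS2, and within the clamp and its loader RFC4 was lowest at 27.7 ± 5.54 RPKM. Of the polymerases, POLD2 at 139 ± 2.81 and POLD1 at 135 ± 1.60 RPKM, both of the lagging-strand polymerase, stood above POLA2 of the priming polymerase at 58.2 ± 4.97 RPKM and its catalytic partner POLA1 at 22.8 ± 0.309 RPKM. The ribonucleotide reductase subunit RRM2 was at 219 ± 5.83 RPKM, RRM1 at 158 ± 14.4 RPKM and thymidylate synthase, TYMS, at 27.0 ± 2.23 RPKM; the TYMS row also names a non-coding accession, so its reads may not all be from the coding gene. Loading factors were at 74.7 ± 3.24 RPKM for CDT1 and 23.0 ± 1.36 RPKM for CDC6, the joining and binding genes ran between RPA2 at 110 ± 1.14 and FEN1 at 179 ± 9.86 RPKM, and CCNE1 stood at 62.7 ± 4.83 RPKM.

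**Figure D1:**
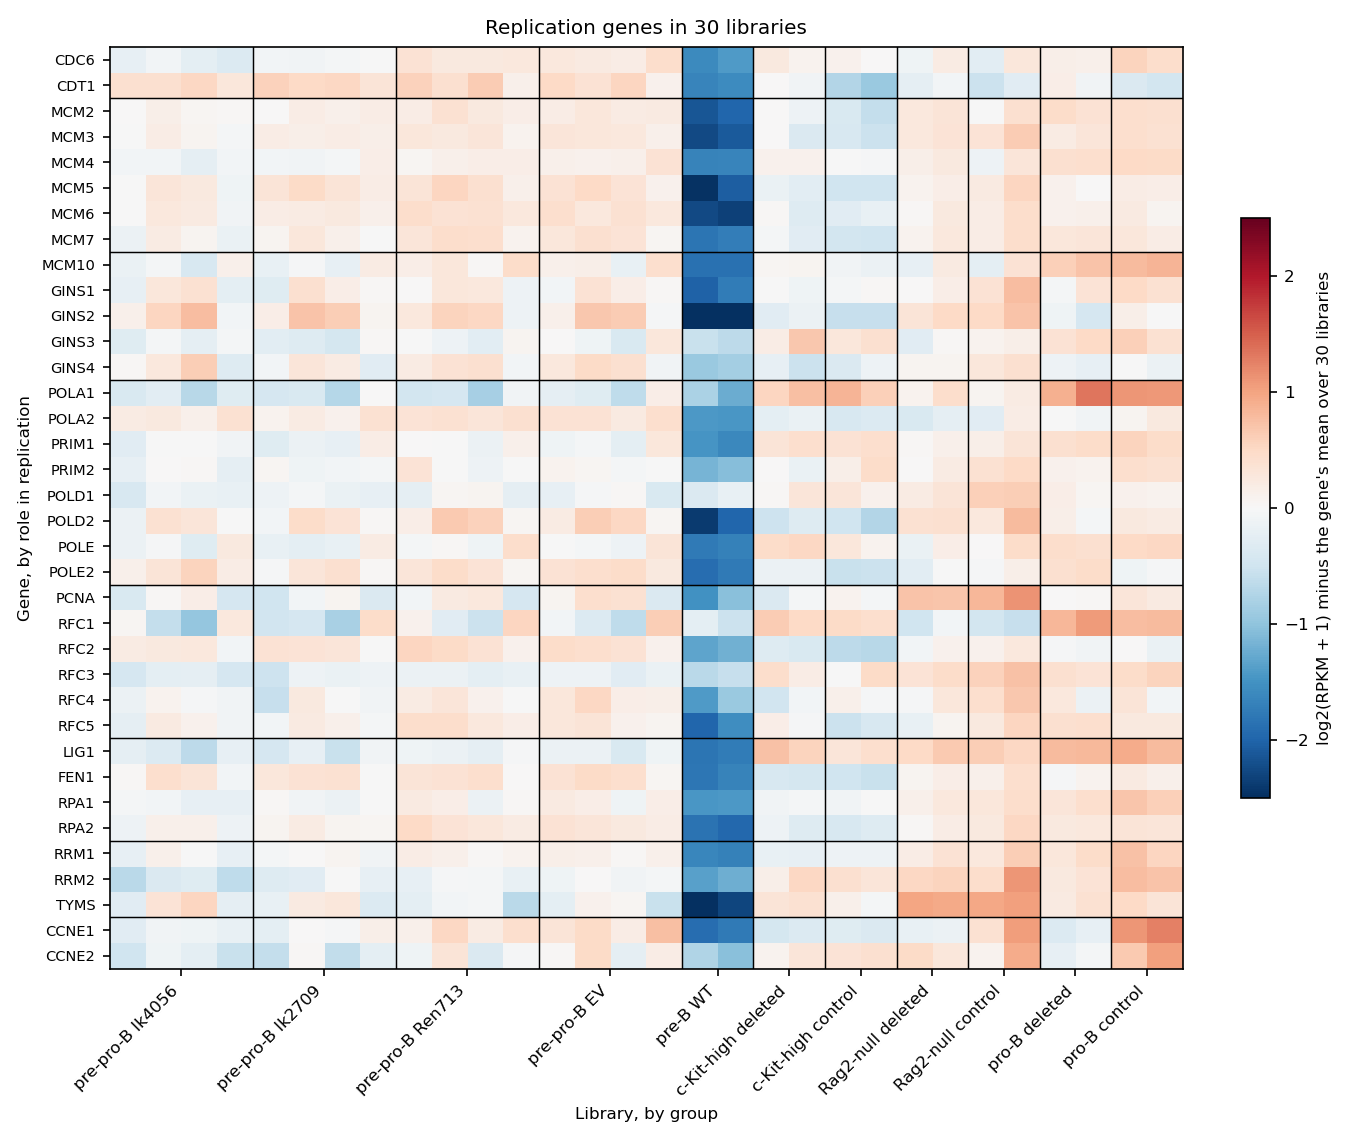
Each row is 1 of the 36 genes listed by name, ordered by role, and each column 1 of the 30 libraries, ordered by group; colour gives log2(RPKM + 1) minus the gene's mean over the 30 libraries. The mean of the 2 pre-B libraries is the lowest group mean in 35 of the 36 rows, the exception being RFC1, which was lowest in Rag2-null controls.

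Summed over the 36 genes, the level was 985 and 1099 RPKM in the pre-B libraries, 2721 to 3068 RPKM in the 4 c-Kit-high libraries, 3688 to 4796 RPKM in the 4 Rag2-null libraries, 3684 to 4111 RPKM in the 4 total pro-B libraries and 2910 to 3940 RPKM in the 16 pre-pro-B libraries. The pre-B libraries stood apart from all others, while the ranges of the Rag2-null, total pro-B and pre-pro-B libraries overlapped. By group mean, 35 of the 36 genes were lowest in pre-B cells, and 14 were highest in Rag2-null controls and 12 in total pro-B controls. The same counts over all genes were not made, so these have no background share to be set against. The colour map of the 30 libraries also sets the pre-B libraries apart.

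The first comparison asked how the replication genes differ between pre-B and pro-B stages. All 36 fell in wild-type pre-B cells relative to control total pro-B cells, and all 36 fell relative to control c-Kit-high pro-B cells. Against total pro-B cells the fall was largest for the cyclin CCNE1, the GINS subunit GINS2, the thymidylate synthase TYMS and the helicase activator MCM10, and in both comparisons it was smallest for the polymerase subunit POLD1. The 2 comparisons share the pre-B libraries. Among all 11937 genes tested, 68.8% were called in either direction against total pro-B cells, 36.9% as lower, and 49.0% were called against c-Kit-high cells, 29.8% as lower. The median log2 difference of the 36 genes was -2.04 against total pro-B cells, where that of all genes was -0.07, and -1.52 against c-Kit-high cells, where that of all genes was -0.11. In neither comparison did a pre-B library reach the level of any control library for any of the 36 genes; of all genes tested, 46.3% were separated in that direction against total pro-B and 42.7% against c-Kit-high controls.

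The MCM helicase showed the pattern in all 6 subunits. MCM3 had 47.1 and 52.3 RPKM in pre-B cells, 172 and 157 RPKM in c-Kit-high controls and 307 and 299 RPKM in total pro-B controls. MCM2 had 45.3 and 50.7 RPKM in pre-B cells, 156 and 135 RPKM in c-Kit-high controls and 274 and 270 RPKM in total pro-B controls. For both genes the 3 groups do not overlap, and c-Kit-high controls lie between. The log2 differences between pre-B and total pro-B cells were -2.59 ± 0.14 for MCM3 and -2.48 ± 0.13 for MCM2 (SE; adjusted p = 9.32e-09 and 1.199e-08). MCM6 had 39.9 and 37.8 RPKM in pre-B cells, 161 and 172 RPKM in c-Kit-high controls and 229 and 206 RPKM in total pro-B controls, MCM5 had 39.3 and 52.5, 158 and 157, and 253 and 251 RPKM in these groups, and MCM4 had 30.8 and 31.3, 99.9 and 97.5, and 141 and 139 RPKM. The subunit that differed least from total pro-B cells was MCM7, at -2.02, and the ring's 6 differences from c-Kit-high controls ran between -2.07 for MCM6 and -1.31 for MCM7.

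GINS2, a subunit of the complex that binds the active helicase, had 9.87 and 9.93 RPKM in pre-B cells, 50.6 and 50.2 RPKM in c-Kit-high controls and 83.2 and 75.1 RPKM in total pro-B controls. Its log2 difference was -2.88 ± 0.13 from total pro-B cells and -2.24 ± 0.13 from c-Kit-high cells. The other subunits of the same complex fell unequally, GINS1 by 2.33, GINS3 by 1.09 and GINS4 by 0.81 on the log2 scale against total pro-B cells. The ratio of GINS2 to GINS3 within a library, into which no scaling between libraries enters, had a median of 1.87 in pre-B cells, 4.52 in c-Kit-high controls and 6.4 in total pro-B controls. MCM10 fell by 2.69 against total pro-B cells. Of the loading factors, CDC6 fell by 2.01 and CDT1 by 1.22 in the same comparison.

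The polymerases fell in 8 of 8 members, with a median of -1.90 against total pro-B cells. PRIM1, the catalytic primase, had 8.60 and 7.70 RPKM in pre-B cells, 32.9 and 34.7 RPKM in c-Kit-high controls and 38.0 and 35.5 RPKM in total pro-B controls, giving -2.05 ± 0.11 against total pro-B and -1.93 ± 0.11 against c-Kit-high cells. POLD1, the catalytic subunit of the lagging-strand polymerase, was singled out after its values were seen as the smallest difference. It had 97.7 and 110 RPKM in pre-B cells, 156 and 136 RPKM in c-Kit-high controls and 136 and 134 RPKM in total pro-B controls, or -0.38 ± 0.12 against total pro-B and -0.49 ± 0.12 against c-Kit-high cells, and its call is lost under both other scalings against total pro-B cells and under median-ratio scaling against c-Kit-high cells. Its partner POLD2 fell by 2.41 against total pro-B cells. The ratio of POLD1 to PCNA within a library was 0.734 to 0.909 in pre-B cells, 0.459 to 0.481 in c-Kit-high controls and 0.362 to 0.376 in total pro-B controls, so these ranges do not overlap.

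The clamp and its loader fell least as a group, with a median of -1.25 over 6 members against total pro-B cells, between -2.0 for RFC5 and -1.13 for RFC3. LIG1, the ligase that seals lagging-strand fragments, had 25.2 and 26.6 RPKM in pre-B cells, 114 and 123 RPKM in c-Kit-high controls and 175 and 159 RPKM in total pro-B controls. Its log2 difference of -2.64 ± 0.11 from total pro-B cells had the smallest adjusted p of the 36 genes, 1.705e-09. RPA1 of the single-strand binding complex had 36.2 and 36.6 RPKM in pre-B cells, 95.4 and 100 RPKM in c-Kit-high controls and 163 and 154 RPKM in total pro-B controls, and RPA2 had 23.9 and 22.1, 67.3 and 70.5, and 111 and 110 RPKM in these groups. RPA1 and RPA2 fell by 2.09 and 2.22 against total pro-B cells, and the flap nuclease FEN1 by 1.91.

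TYMS, which makes thymidylate, had 2.62 and 3.31 RPKM in pre-B cells, 21.8 and 19.3 RPKM in c-Kit-high controls and 28.6 and 25.4 RPKM in total pro-B controls. This is -2.82 ± 0.13 against total pro-B and -2.44 ± 0.13 against c-Kit-high cells. RRM1, the large subunit of ribonucleotide reductase, had 31.8 and 30.5 RPKM in pre-B cells, 92.1 and 92.3 RPKM in c-Kit-high controls and 168 and 148 RPKM in total pro-B controls. CCNE1 had 6.51 and 7.31 RPKM in pre-B cells, 21.8 and 20.9 RPKM in c-Kit-high controls and 59.3 and 66.2 RPKM in total pro-B controls. Its fall of 3.01 ± 0.17 on the log2 scale against total pro-B cells was the largest of the 36. CCNE2 fell by 1.74.

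**Figure D2:**
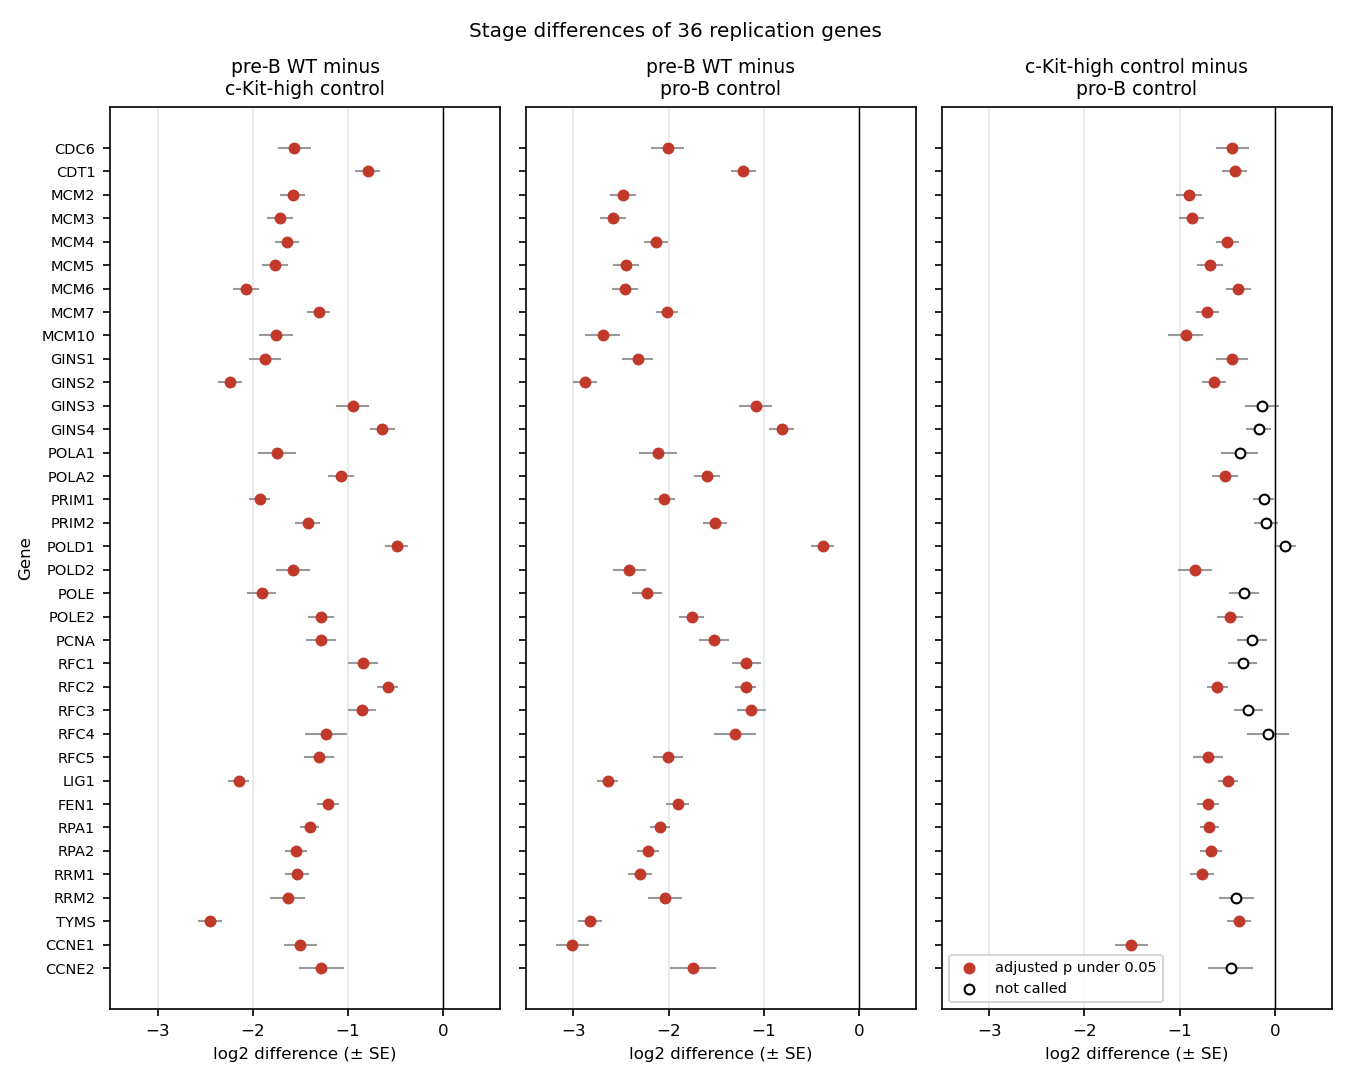
Each point is the log2 difference of 1 of 36 genes between 2 groups of 2 libraries, with its standard error as a bar; filled points are called at an adjusted p under 0.05 and open points are not. All points of the pre-B panels lie left of 0, between -3.01 and -0.38, and in the rightmost panel 23 of 36 are filled.

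The genes under older symbols followed in part. CDC45, a helicase subunit, had 10.3 and 10.5 RPKM in pre-B cells and 41.7 and 40.7 RPKM in total pro-B controls, and ORC1, the origin-binding ATPase, had 1.68 and 1.25 against 13.1 and 12.4 RPKM; both fell, by 1.89 and 2.48 on the log2 scale, as did ORC2 and ORC6. ORC3 had 6.55 and 4.96 RPKM in pre-B cells against 6.83 and 5.80 RPKM in total pro-B controls and was not called (adjusted p = 0.597). Other parts of the cycle were lower as well. Of 31 further replication and chromatin assembly genes, 28 fell and 1 rose against total pro-B cells, with CHAF1B, a histone chaperone subunit, at -2.79 ± 0.11 and DUT, the dUTPase, at -2.83 ± 0.14. Of 24 mitosis genes all fell, BIRC5 by 1.87 ± 0.11. Of 25 genes of G1 and S-phase control, 19 fell and 5 rose, with MYC, the growth-promoting transcription factor, at -4.65 ± 0.17 and cyclin D2, CCND2, at -3.82 ± 0.17.

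Markers of other cells moved with these differences. All 13 granulocyte markers were called higher in pre-B cells in both comparisons. They summed to 8045 and 8383 RPKM in the pre-B libraries, 2.15% and 2.14% of all RPKM there, against 117 and 717 RPKM in c-Kit-high controls and 0.992 and 1.32 RPKM in total pro-B controls; S100A8, S100A9, NGP and MPO were at 0 in both total pro-B controls. Monocyte and macrophage markers summed to 487 and 643 RPKM in pre-B cells, 41.5 and 75.6 RPKM in c-Kit-high controls and 17.3 and 19.0 RPKM in total pro-B controls, and erythroid markers to 217 and 284, 10.1 and 65.4, and 4.11 and 4.85 RPKM in these groups. Here and below, monocyte and macrophage sums include the EMR1 row 2 times, under 2 names, and erythroid sums the HBB-B1 row. Counts of called markers in these lists may hold the repeated row as well. The part of all these markers in the falls was not tested.

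Within the pro-B controls, c-Kit-high cells had lower levels than total pro-B cells for 23 of 36 genes and higher levels for none at the threshold, where 50.8% of all genes were called, 23.0% as lower. The median was -0.47 for the 36 genes and 0.08 for all genes. All 6 MCM genes, both loading factors and all 4 joining and single-strand binding genes fell, whereas 2 of 6 clamp and loader genes and 3 of 8 polymerase genes did. CCNE1 showed the largest difference, at -1.51 ± 0.17 (adjusted p = 3.1e-05), from the values given above. MCM10 had 23.5 and 22.6 RPKM in c-Kit-high and 44.2 and 45.8 RPKM in total pro-B controls, or -0.94 ± 0.18. MCM7 had 150 and 146 RPKM in c-Kit-high and 251 and 235 RPKM in total pro-B controls, or -0.71 ± 0.12. FEN1 had 112 and 107 against 185 and 172 RPKM, and RFC2, a small loader subunit, had 91.0 and 89.1 against 146 and 129 RPKM. In 30 of the 36 genes both c-Kit-high libraries lay below both total pro-B libraries, the exceptions being GINS3, GINS4, PRIM2, POLD1, RFC3 and RFC4; of all genes tested, 34.1% were separated in that direction. Granulocyte markers were called higher in c-Kit-high controls for 12 of 13 genes. Of 10 stage markers 7 were higher and 0 lower, and of 11 B-lineage markers 8 were higher and 1 lower. EBF1 and RAG2 are in both of these lists. Among the stage markers, IL7R was higher by 3.19 ± 0.34, DNTT by 2.82 ± 0.51 and KIT by 0.86 ± 0.19 on the log2 scale. The 53 replication-dependent histone rows, of which 50 were tested, summed to 1976 RPKM in c-Kit-high control library 1 and 236 RPKM in library 2, against 146 and 112 RPKM in the total pro-B controls. Of 24 mitosis genes, 10 fell. The part of these other genes in the result was not tested; without c-Kit-high control library 1 the count of replication genes was 20, all lower, and without library 2, the shallowest of all at an implied 2.3 M reads, it was 19.

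Rag2-null controls differed from total pro-B controls in both directions. Library numbers differ with the Rag2 genotype, so genotype and library series cannot be told apart. Of the 36 genes, 10 were called, 5 higher and 5 lower, where 31.6% of all genes were called, 10.9% as higher and 20.7% as lower. Of the 31 further replication genes 6 were higher and 16 lower, with the checkpoint adaptor CLSPN at -1.50 ± 0.15, and of the 24 mitosis genes 5 were higher and 12 lower, with the kinetochore motor CENPE at -2.21 ± 0.29. Quantile normalization turned this split to 1 higher and 8 lower and median-ratio scaling to 6 higher and 3 lower, and leaving out Rag2-null control library 2 gave 15 calls, 4 higher and 11 lower, so the balance of directions depended on scaling and on that library. Library 2 was above library 1 for 34 of 36 genes. PCNA had 543 and 667 RPKM in Rag2-null and 377 and 357 RPKM in total pro-B controls (0.71 ± 0.16), TYMS had 40.2 and 41.7 against 28.6 and 25.4 RPKM, POLD1 had 191 and 193 against 136 and 134 RPKM, GINS2 had 107 and 124 against 83.2 and 75.1 RPKM, and GINS4 had 58.8 and 63.8 against 48.2 and 43.6 RPKM. Lower in Rag2-null controls was RFC1, the large subunit of the clamp loader, with 18.8 and 17.1 RPKM against 45.3 and 46.2 RPKM (-1.31 ± 0.15, adjusted p = 0.0001098). POLA1 had 10.7 and 11.8 RPKM in Rag2-null and 23.0 and 22.6 RPKM in total pro-B controls (-0.96 ± 0.20), and MCM10 had 20.8 and 32.2 against 44.2 and 45.8 RPKM. MCM4 had 91.6 and 124 against 141 and 139 RPKM and CDC6 13.1 and 19.4 against 23.9 and 22 RPKM. The Rag2-null libraries of RFC1 and POLA1 lie far below both total pro-B controls, while MCM4 and CDC6 came close to them in library 2. The median genomic span was 22.1 kb for the 5 lower genes, 15.05 kb for those not called and 11.1 kb for the 5 higher genes. These spans overlap between the sets, and the part of gene length was not tested. Without Rag2-null control library 1 there were 7 calls, and without total pro-B control library 1 or 2 there were 7 and 6.

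Deletion of Ikzf1 was compared with control in each pro-B setting. Few replication genes changed: CCNE1 fell in total pro-B and in Rag2-null cells, CCNE2 fell and POLE2 rose in total pro-B cells, CDT1 rose in total pro-B and in c-Kit-high cells, and RFC5 and MCM2 rose in c-Kit-high cells. In total pro-B cells 4 of 36 genes were called, CCNE1 and CCNE2 lower and POLE2 and CDT1 higher, against 23.4% of all genes called. The median over the 36 genes was -0.10, and 0.03 over all genes. CCNE1 had 21.1 and 23.5 RPKM in deleted cells against 59.3 and 66.2 RPKM in controls, a log2 difference of -1.45 ± 0.17 (adjusted p = 6.5e-05). CCNE2 had 5.30 and 6.07 against 10.5 and 13.7 RPKM (-0.96 ± 0.24, adjusted p = 0.01119). The deleted libraries lie below both controls for each E cyclin, and for CCNE1 near the level of c-Kit-high cells. CDT1, which loads the helicase and is normally held in check by geminin, had 112 and 93.8 RPKM in deleted cells against 77.0 and 72.4 RPKM in controls (0.45 ± 0.13, adjusted p = 0.02299), and POLE2 had 16.3 and 17.1 against 11.2 and 11.8 RPKM (0.50 ± 0.14, adjusted p = 0.01708). The helicase ring differed little, its 6 log2 differences running between -0.15 for MCM3 and 0.05 for MCM7, none of them called. The ratio of CCNE1 to MCM2 within a library was 0.0759 to 0.0893 in deleted cells and 0.217 to 0.245 in controls. Leaving out total pro-B control library 2 left only CCNE1 called, and leaving out control library 1 or deleted library 1 left 2 calls; a fit on the 4 libraries alone called 9 genes, 2 higher and 7 lower. The split of 2 higher and 2 lower became 1 and 2 with quantile normalization and 1 and 4 with median-ratio scaling.

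In c-Kit-high cells 3 of 36 genes were called, all higher in deleted cells, against 17.2% of all genes. CDT1 had 100 and 93.0 RPKM in deleted cells against 59.7 and 51.7 RPKM in controls, a log2 difference of 0.79 ± 0.13 (adjusted p = 0.000991). RFC5, a small loader subunit, had 51.5 and 44.4 against 31.2 and 34.5 RPKM (0.53 ± 0.16), and MCM2 had 204 and 188 against 156 and 135 RPKM (0.43 ± 0.13, adjusted p = 0.04544). For all 3 genes both deleted libraries lie above both controls. CCNE1 was at 19.7 and 21.1 RPKM in deleted cells against 21.8 and 20.9 RPKM in controls (-0.06 ± 0.17, adjusted p = 0.8556), and the values overlap. Of the 36 differences, 23 were positive. The calls of RFC5 and MCM2 were not stable: CDT1 alone remained without deleted library 1, deleted library 2 or control library 2, median-ratio scaling called 1 higher and 1 lower, and quantile normalization 5 higher and 1 lower. Histone rows stood high in 1 library of each group, at 2267 RPKM in deleted library 2 and 1976 RPKM in control library 1 against 189 and 236 RPKM in the others, and with the 2 libraries of neighbouring library numbers alone no gene was called.

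In Rag2-null cells only CCNE1 was called, against 22.3% of all genes. It had 23.7 and 24.3 RPKM in deleted cells against 35.9 and 56.9 RPKM in controls, a log2 difference of -0.89 ± 0.17 (adjusted p = 0.002881). Both deleted libraries lie below both controls, which differ widely from each other. Of the 36 differences 29 were negative, with a median of -0.18 against 0.06 for all genes. The CCNE1 call was lost when only the 4 compared libraries were fitted (adjusted p = 0.061), where none of the 36 genes was called. The count also followed control library 1, the lower of the pair for 34 of 36 genes: without it 6 genes were called, all lower, and with median-ratio scaling 7, all lower. CDT1 had 84.8 and 94.8 RPKM in deleted cells against 68.3 and 81.3 RPKM in controls and was not called (adjusted p = 0.1742).

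**Figure D3:**
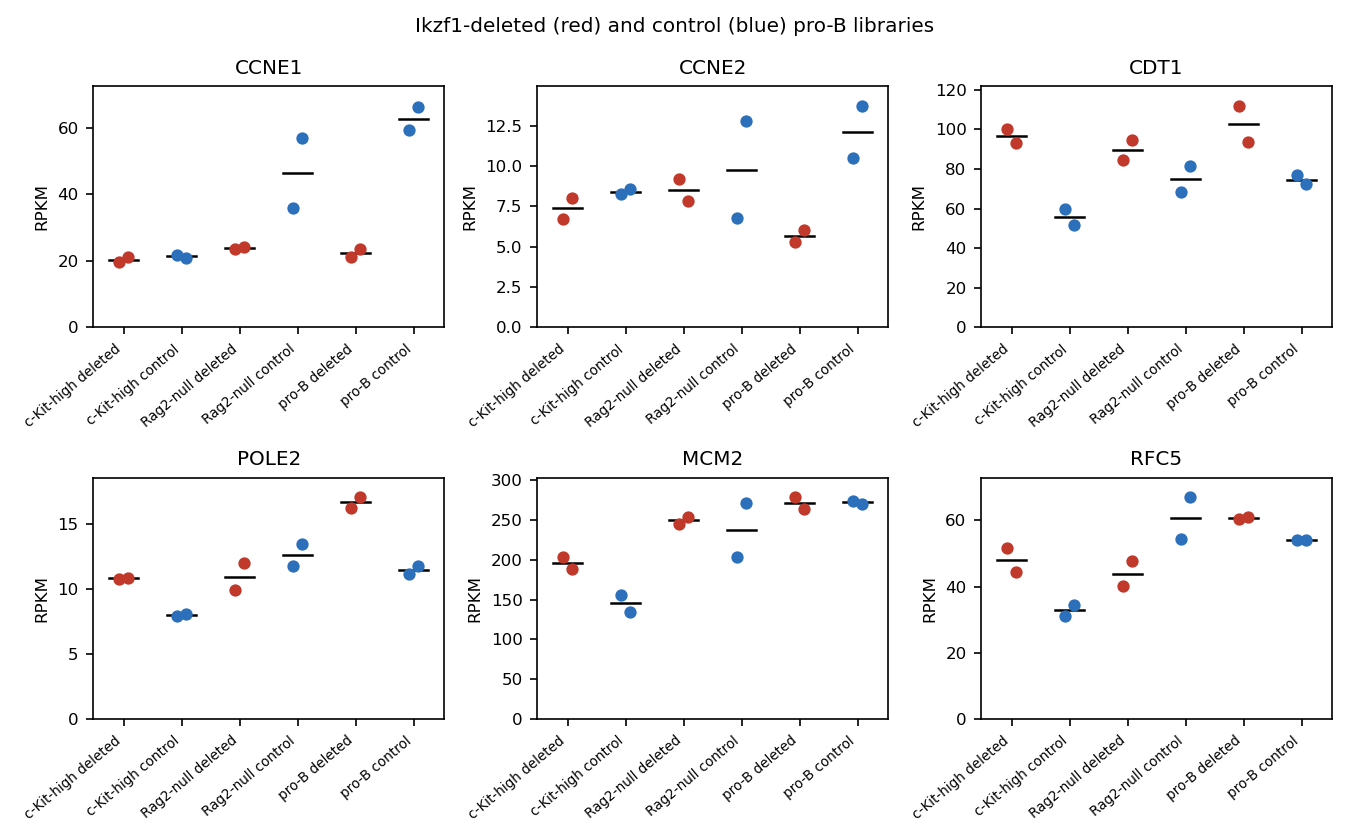
Points give RPKM in each library and lines the mean of 2 libraries, for 6 genes in Ikzf1-deleted (red) and control (blue) pro-B cells of 3 settings. CCNE1 lies between 19.7 and 24.3 RPKM in all 6 deleted libraries and in both c-Kit-high controls, and between 35.9 and 66.2 RPKM in the other 4 controls.

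The difference of deletion effects was tested directly. Between c-Kit-high and total pro-B cells, CCNE1 (1.39 ± 0.25, adjusted p = 0.006099) and GINS2 (0.68 ± 0.18, adjusted p = 0.04404) differed, against 6.70% of all genes called. GINS2 had 61.5 and 67.7 RPKM in deleted against 50.6 and 50.2 RPKM in control c-Kit-high cells, and 70.0 and 55.9 against 83.2 and 75.1 RPKM in total pro-B cells. The deletion thus went with a higher GINS2 level in one setting and a lower one in the other, though neither difference was called by itself. GINS2 lost its call in 11 of the alternative settings and CCNE1 in none. Between Rag2-null and total pro-B cells only POLE2 differed (-0.70 ± 0.19, adjusted p = 0.03076), against 13.1% of all genes. POLE2 had 9.91 and 12 RPKM in deleted against 11.8 and 13.5 RPKM in control Rag2-null cells. Without either total pro-B control, without either deleted total pro-B library or without deleted Rag2-null library 1 no gene was called, and without Rag2-null control library 1 or 2 there were 2. The CCNE1 effects of Rag2-null and total pro-B cells did not differ at the threshold (0.56 ± 0.25, adjusted p = 0.1725).

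Other markers moved with the deletion. In total pro-B cells 7 of 11 B-lineage markers fell and 1 rose, with sums of 3331 and 3012 RPKM in deleted against 3680 and 3716 RPKM in control cells and none at 0. Of 10 stage markers 4 fell and 2 rose there, among them DNTT, the terminal transferase of pro-B cells, at -4.84 ± 0.51, and KIT, the receptor that marks early precursors, at 0.62 ± 0.19. T-cell markers summed to 19.9 and 23.8 RPKM in deleted against 63.4 and 63.0 RPKM in control total pro-B cells, with 1 of 5 tested called lower. In c-Kit-high cells 3 B-lineage markers fell, with sums of 5411 and 4405 RPKM in deleted against 5013 and 6440 RPKM in control cells, and DNTT differed by -1.81 ± 0.51. T-cell markers summed there to 17.5 and 16.2 RPKM in deleted against 36.5 and 38.7 RPKM in control cells. In Rag2-null cells KIT rose by 1.27 ± 0.19 and 3 of 8 monocyte and macrophage markers rose, with sums of 49.2 and 40.8 RPKM in deleted against 28.5 and 11.6 RPKM in control cells, while T-cell markers summed to 17.4 and 9.04 RPKM in deleted against 91.7 and 34.2 RPKM in control cells. In each setting both deleted libraries lay below both controls in their T-cell marker sum. However, 8 or 9 of the 10 T-cell markers were below 1 RPKM in every pro-B library, so few genes carry these sums. Of the 5 T-cell markers tested, 0 were called in c-Kit-high cells and 2 were called lower in Rag2-null cells. The part of these markers in the differences of the replication genes was not tested.

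Among the further lists, E2F2, a transcription factor of the G1 to S transition, fell in deleted cells of all 3 settings, by log2 values of 0.55 ± 0.10 (total pro-B), 0.31 ± 0.10 (c-Kit-high) and 0.89 ± 0.10 (Rag2-null), and the D cyclin CCND3 fell by 1.75 ± 0.16, 0.86 ± 0.16 and 1.02 ± 0.16 in the same settings. CDKN1A, of the G1 and S-phase control list, fell by 2.82 ± 0.36 in total pro-B and 1.61 ± 0.36 in Rag2-null cells. These were the largest called differences of that list in both settings. In c-Kit-high cells CDKN1A was not called (-0.67 ± 0.36, adjusted p = 0.2572). CCND2, another D cyclin, rose by 0.84 ± 0.17 in total pro-B and 0.85 ± 0.17 in c-Kit-high cells. RBL2, a pocket protein, rose by 0.48 ± 0.12 in total pro-B cells, and MYC rose by 0.58 ± 0.17 in Rag2-null cells. Of the 25 genes of G1 and S-phase control, 2 rose and 4 fell in total pro-B cells, 1 rose and 2 fell in c-Kit-high cells, and 1 rose and 3 fell in Rag2-null cells. UHRF1, which maintains DNA methylation behind the fork, fell by 0.67 ± 0.12, 0.45 ± 0.12 and 0.59 ± 0.12. Over the whole list of 31 further replication genes, 3 rose and 3 fell in total pro-B cells, 5 rose and 1 fell in c-Kit-high cells, and 1 rose and 6 fell in cells lacking Rag2. Of 24 mitosis genes, 1 rose in total pro-B cells, none was called in c-Kit-high cells and 5 fell in Rag2-null cells.

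With Ikzf1 knocked down in pre-pro-B cells, part of the replication genes fell slightly. With both Ikzf1 hairpins as one group, 8 libraries against 8, 6 of 36 genes fell and none rose. Of all 10744 genes tested, 19.4% were called in either direction and 6.04% were called lower. These 6 were CDC6, CCNE1, RPA2, MCM4, RRM2 and MCM6. The libraries fall into 4 runs of consecutive library numbers, each with 1 library per construct, and libraries of 1 run deviated together, so the fit was repeated with the run as a block. It called 25 of 36 genes, 24 lower and only TYMS higher, against 51.9% of all genes called, 23.1% as lower. The median difference of the 36 genes was -0.15 and that of all genes 0.01, and 33 of the 36 were negative. The changes were small: in the blocked fit the largest was a fall of 0.47 ± 0.06 on the log2 scale, for CCNE1.

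CDC6 had 13.6, 15.0, 13.2 and 12.3 RPKM with Ik4056 and 15.0, 14.8, 15.4 and 15.8 RPKM with Ik2709, against 20.7, 19.0, 19.1 and 19.3 RPKM with Ren713 and 19.2, 18.7, 18.1 and 21.9 RPKM with the empty vector. All 8 hairpin libraries lie below all 8 controls. The log2 difference was -0.42 ± 0.06 without the block (adjusted p = 9.6e-05) and -0.42 ± 0.05 with it (adjusted p = 2.12e-06). CCNE1 had 22.1, 25.4, 25.2 and 23.7 RPKM with Ik4056 and 22.9, 27.5, 26.5 and 30.1 RPKM with Ik2709, against 29.8, 39.1, 31.5 and 36.7 RPKM with Ren713 and 34.4, 38.3, 31.0 and 46.2 RPKM with the empty vector. Its highest hairpin library, of run 4, is above the lowest control, of run 1, and within each run both hairpins lie below both controls. The difference was -0.47 ± 0.09 without the block (adjusted p = 0.001023).

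RPA2 of the single-strand binding complex ranged between 80.7 and 103 RPKM with a median of 93.1 RPKM in hairpin libraries, against 101 and 126 RPKM with a median of 109 RPKM in controls (-0.25 ± 0.07 without the block). The helicase subunit MCM4 ranged between 85.5 and 112 RPKM with a median of 95.2 RPKM in hairpin libraries, against 104 and 129 RPKM with a median of 110 RPKM in controls (-0.22 ± 0.06 without the block). MCM6 of the same ring as MCM4 ranged between 184 and 234 RPKM with a median of 223 RPKM in hairpin libraries, against 234 and 264 RPKM with a median of 252 RPKM in controls (-0.20 ± 0.07 without the block). RRM2, the regulated subunit of ribonucleotide reductase, ranged between 81.6 and 130 RPKM with a median of 105 RPKM in hairpin libraries, against 113 and 131 RPKM with a median of 124 RPKM in controls (-0.26 ± 0.07 without the block). For MCM6 the highest hairpin library lies just under the lowest control, both at 234 RPKM when rounded, and for RPA2, MCM4 and RRM2 the ranges overlap across runs. Within every run, both hairpin libraries lay below both control libraries for 12 of the 36 genes, namely CDC6, MCM4, MCM6, MCM7, MCM10, POLA2, POLD2, RFC2, RFC4, RPA1, RPA2 and CCNE1, and the hairpin mean lay below the control mean in all 4 runs for 25. Of all 10744 genes tested, 8.15% met the stricter and 24.4% the looser of these conditions. By role, the blocked fit called all 6 MCM genes lower, with MCM7 at -0.23 ± 0.04 and MCM5 at -0.12 ± 0.04. Of clamp and loader genes it called PCNA, RFC1, RFC2, RFC4 and RFC5 lower and not RFC3. LIG1, RPA1 and RPA2 were lower and FEN1 was not called (-0.09 ± 0.04, adjusted p = 0.058). Of 8 polymerase genes POLA2, POLD2 and POLE were lower, of the helicase activation genes MCM10 and GINS4 were, and both E cyclins and both reductase subunits were.

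**Figure D4:**
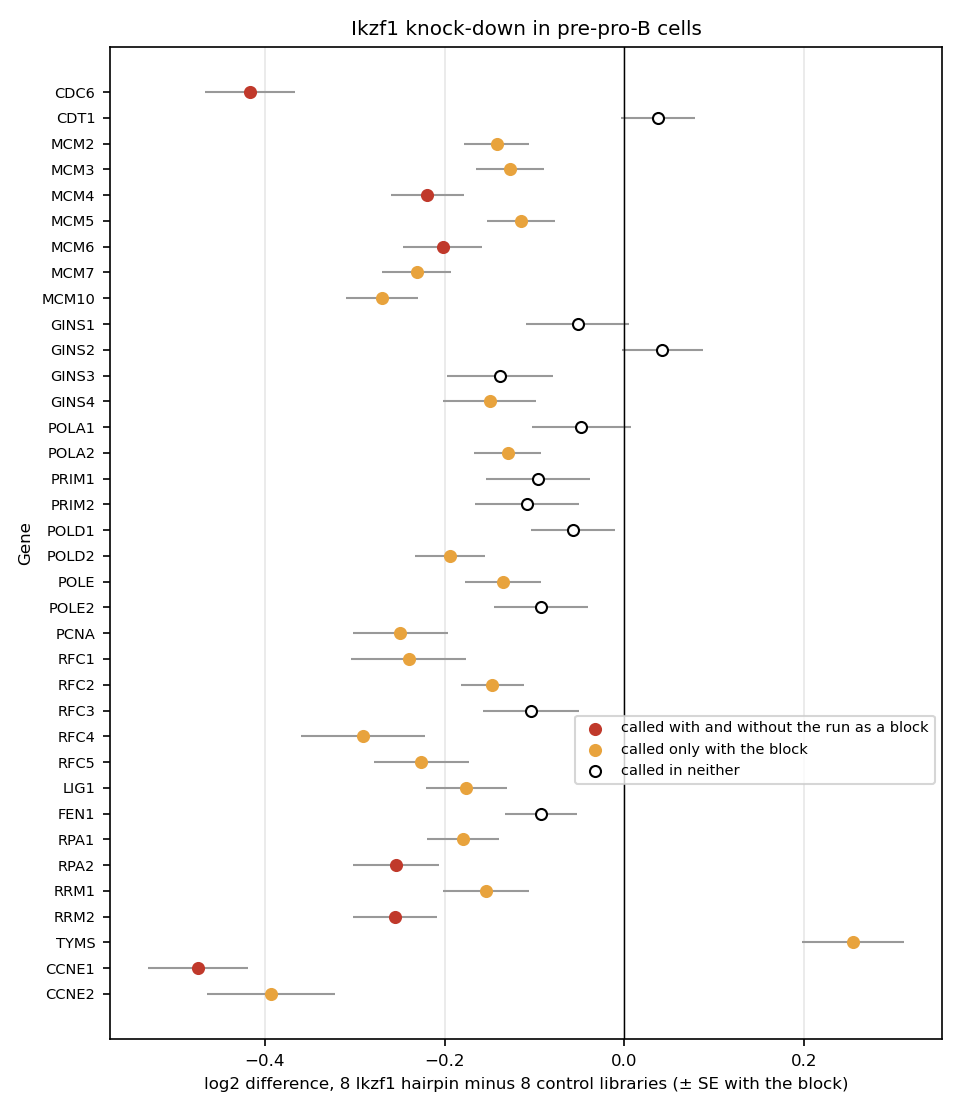
Points give the log2 difference between 8 Ikzf1 hairpin and 8 control libraries for each of 36 genes with the standard error of the blocked fit. Red points (6 genes) are called with and without the block, orange points (19 genes) only with it, and open points (11 genes) in neither; TYMS at 0.25 is the only called point right of 0.

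TYMS went the other way. It ranged between 15.6 and 29.6 RPKM, with a median of 20.5 RPKM, in hairpin libraries and between 12.2 and 21.6 RPKM, with a median of 17.9 RPKM, in controls. The blocked difference was 0.25 ± 0.06 (adjusted p = 0.001258), and without the block it was not called (adjusted p = 0.304). In runs 2, 3 and 4 both hairpin libraries were above both controls, and in run 1 they had 16.3 and 17.4 RPKM against 16.8 RPKM in each control. CDT1 was at 121 to 149 RPKM in hairpin libraries and 107 to 155 RPKM in controls and was called in neither fit (0.04 ± 0.04 with the block, adjusted p = 0.4742). Among the genes under older symbols CDC45 had a median of 33.2 RPKM with hairpins and 39.5 RPKM in controls and fell in both fits (-0.23 ± 0.05 without the block), and ORC6 fell in both (-0.24 ± 0.08 without it), while ORC1, ORC2 and ORC3 were called in neither.

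**Figure D5:**
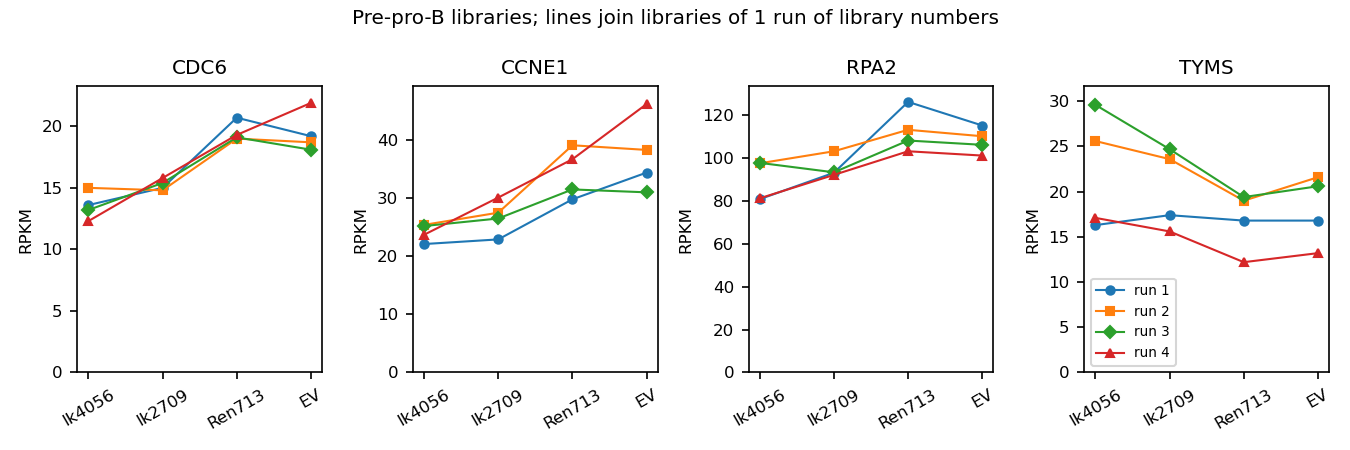
RPKM of 4 genes in the 16 pre-pro-B libraries, with constructs on the horizontal axis and lines joining the libraries of 1 run. CDC6 and CCNE1 lie lower with both Ikzf1 hairpins than with both controls in all 4 runs, and TYMS lies higher with both hairpins than with both controls in runs 2, 3 and 4.

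Each hairpin was also compared alone with the same 8 controls, which the 2 comparisons share. With Ik4056, 6 genes fell without the block, against 18.9% of all genes called in either direction and 5.21% as lower. With the block 22 fell and TYMS was again the only one higher, against 51.0% in either direction and 20.8% as lower. With Ik2709, CCNE1 and CDC6 fell without the block, against 11.7% in either direction and 3.86% as lower. With the block 18 genes fell and 1 was higher, against 37.8% in either direction and 17.3% as lower. CCNE1 was at -0.54 ± 0.11 with Ik4056 and -0.40 ± 0.11 with Ik2709, and CDC6 at -0.50 ± 0.07 and -0.33 ± 0.07. Set directly against each other, the hairpins differed for none of the 36 genes in limma without the block, 1 having an unadjusted p under 0.05, against 3.33% of all genes, and for 2 with it, MCM5 and RRM2, both lower with Ik4056, against 22.4%. The 2 control constructs differed for none, with or without the block; 0.00% of all genes were called without it, and none of the 36 genes and 58 of all genes had an unadjusted p under 0.05.

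Other genes moved in the hairpin libraries as well. Granulocyte markers summed to 536 to 1365 RPKM with Ikzf1 hairpins against 30.3 to 126 RPKM in controls, with all 5 tested markers called higher and 6 to 8 of the 13 at 0 in either group. Monocyte and macrophage markers summed to 66.9 to 96.5 RPKM against 13.2 to 23.6 RPKM, with 5 of 7 tested called higher and 2 lower. Of B-lineage markers 4 of 7 tested rose and 2 fell, and of T-cell markers 3 of 4 rose and 1 fell. Of erythroid markers 2 of 2 fell, which may be the repeated HBB-B1 row. The part of all these markers in the falls was not tested. Of 31 further replication genes 1 fell without the block, UHRF1 by 0.36 ± 0.05, and 15 fell and 1 rose with it; of 24 mitosis genes none was called without it and 8 fell with it. In the G1 and S-phase list CCND2 rose by 1.48 ± 0.15 and E2F2 fell by 0.81 ± 0.12 without the block. Without Ik4056 library 2 the unblocked count of replication genes was 10, all lower.

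Control pre-pro-B cells were last set against control total pro-B cells, in a fit of all 30 libraries. The 2 sets differ in Ebf1 genotype, vector, Cre and library run together, and the pre-pro-B cells were cultured. These factors cannot be told apart. Of the 36 genes 3 were higher in pre-pro-B cells and 16 lower, against 55.5% of all 12272 genes called, 25.3% as higher and 30.1% as lower. The helicase ring differed little, with MCM4 the 1 of 6 subunits called (-0.32), and MCM6 at 0.19 the highest. LIG1 ranged between 70.7 and 90.2 RPKM with a median of 82.9 RPKM in pre-pro-B controls, against 175 and 159 RPKM in pro-B controls (-1.02 ± 0.12, adjusted p = 1.165e-07). POLA1 ranged between 5.32 and 11.5 RPKM with a median of 7.74 RPKM, against 23.0 and 22.6 RPKM (-1.43 ± 0.20), and RFC3 between 47.6 and 52.9 RPKM with a median of 51.6 RPKM, against 79.6 and 86.2 RPKM. CDT1 was higher, between 107 and 155 RPKM with a median of 136 RPKM, against 77.0 and 72.4 RPKM (0.81 ± 0.12, adjusted p = 7.254e-06). Those 4 genes show groups that do not overlap. Of the 36 genes, 4 were higher and 21 lower in every pre-pro-B control than in both pro-B controls. Of all genes tested, 27.1% and 31.2% were separated in these directions.

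RRM2 lay at 113 to 131 RPKM with a median of 124 RPKM in pre-pro-B controls, against 223 and 215 RPKM in pro-B controls (-0.84 ± 0.13). RPA1 lay at 91.1 to 119 RPKM with a median of 113 RPKM in pre-pro-B controls, against 163 and 154 RPKM in pro-B controls (-0.55 ± 0.10). RRM2 and RPA1 were thus lower in every pre-pro-B control than in both pro-B controls. CCNE1 lay at 29.8 to 46.2 RPKM with a median of 35.5 RPKM in pre-pro-B controls, against 59.3 and 66.2 RPKM in pro-B controls (-0.80 ± 0.14). RRM1 lay at 104 to 116 RPKM with a median of 110 RPKM in pre-pro-B controls, against 168 and 148 RPKM in pro-B controls (-0.52 ± 0.10). PRIM1 lay at 21.5 to 31.4 RPKM with a median of 25.1 RPKM in pre-pro-B controls, against 38.0 and 35.5 RPKM in pro-B controls (-0.52 ± 0.12). PRIM1 likewise did not overlap between the groups. MCM10 lay at 21.8 to 34.8 RPKM with a median of 28 RPKM in pre-pro-B controls, against 44.2 and 45.8 RPKM in pro-B controls (-0.64 ± 0.16). POLE2 and RFC2 were the other 2 genes called higher. The median over the 36 genes was -0.22 and over all genes -0.06. Without total pro-B control library 1 the count was 12. The histone rows summed to 467 to 677 RPKM in pre-pro-B controls against 146 and 112 RPKM in pro-B controls, and 28 of 51 tested rows were called higher. Their relation to the library preparation, which took poly(A) RNA, was not tested, so they are not read as a measure of replication.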

How the data were processed

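Poly(A) RNA was sequenced from the sorted or cultured cells described above, with strand-specific single-end libraries per the labels' protocols. The submitters' processing notes name TopHat 1.4.1, HTSeq 0.5.3, DESeq 1.8.3 and build mm9, without giving their roles. The authors deposited 1 RPKM value per gene model and library; no counts were used. RPKM was transformed as log2(RPKM + 1), and genes with at least 1 RPKM in at least 2 libraries entered limma 3.58.1, run under R 4.3.3 (empirical Bayes with trend and robust estimation; two-sided; Benjamini-Hochberg adjusted p under 0.05 over all genes tested). One fit held the 14 pro-B and pre-B libraries (11937 genes), one the 16 pre-pro-B libraries (10744 genes) and one all 30 (12272 genes). The code was checked on simulated data. A value from all reads of a gene model depends on mapping and on gene length, and RPKM on the other genes' share of the reads.

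The members and gene lists were chosen with earlier results of these data known. In each comparison values are given for the called members, or for the 10 with the smallest adjusted p, and for at most 5 called genes of each further list. Replicates correlated at 0.981 to 0.996 (Pearson, log2, 31 pairs) with 0 identical non-zero values in any pair.

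The design text groups the pre-pro-B libraries in 4 replicates of 2 controls and 2 hairpins, and consecutive library numbers form 4 runs of that kind. Over all genes, deviations from group means correlated at 0.52 to 0.93 (median 0.775) within a run and at -0.761 to 0.428 (median -0.22) between runs, so runs were taken to pair the libraries.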

Additional observations from a re-analysis of the deposited data

Results flagged for a closer look

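Among 144 sets of 4 pre-pro-B libraries of one construct and one gene, 6 held a library whose gap to its nearest neighbour exceeded the 95% critical value of Dixon's ratio; chance flags about 1 set in 20, and the sets are not independent, since libraries of 1 run deviated together. MCM4 was at 85.5 RPKM in Ik4056 library 3, against 95.1 to 95.2 RPKM in the others of that construct, and at 129 RPKM in empty-vector library 4, against 108 to 110 RPKM. POLE was at 24.2 RPKM in Ik2709 library 4, against 17.6 to 18.3 RPKM, and it was highest in run 4 with every construct, at 25 RPKM with Ik4056, 28.9 RPKM with Ren713 and 26.4 RPKM with the empty vector. RFC3 was at 40 RPKM in Ik2709 library 1, against 51.2 to 53.0 RPKM, and RPA2 at 103 RPKM in Ik2709 library 2, against 92.0 to 93.2 RPKM. CDC6 was at 20.7 RPKM in Ren713 library 1, against 19.0 to 19.3 RPKM.

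For 3 genes the log2 effect of Ikzf1 deletion differed between settings by a test of the difference itself. It was higher in c-Kit-high than in total pro-B cells for CCNE1 by 1.39 and for GINS2 by 0.68, and the difference for POLE2, Rag2-null minus total pro-B cells, was -0.70.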

How the results depend on the processing

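The falls in pre-B cells kept 35 or 36 of 36 calls under every alternative run. Counts of called replication genes moved by over 1.5 times elsewhere, and the cause was not tested. With only the compared groups in the fit the count was 9 for deletion in total pro-B cells (4 as reported), 1 in c-Kit-high cells (3) and 0 in Rag2-null cells (1). Quantile normalization gave 6 in c-Kit-high cells, the pair with neighbouring library numbers 0, and in Rag2-null cells median-ratio scaling gave 7 and no robust moderation 2. For Rag2-null against total pro-B controls the fit of all 30 libraries gave 6 (10). For the difference of deletion effects between c-Kit-high and total pro-B cells, a pseudocount of 0.1, no filter, the compared groups alone and all 30 libraries each gave 1 (2).

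For both hairpins together median-ratio scaling gave 10 (6) and the run as a replicate block 25; the block with quantile normalization or median-ratio scaling, both chosen after seeing the data, gave 26 and 31. The block gave 23 for Ik4056 (6), 19 for Ik2709 (2) and 2 between the hairpins (0). No other comparison could be paired. Scaling moved the median log2 difference of all genes by over 0.1 in 3 comparisons: to -0.07 (quantile) and -0.04 (median-ratio) for deletion in Rag2-null cells, to 0.0011 and 0.03 for pre-B against c-Kit-high cells, and to 0.02 (median-ratio) for Rag2-null against total pro-B controls.

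Leaving out 1 library at a time gave counts of 1 to 3 for deletion in total pro-B cells, 1 to 3 in c-Kit-high and 1 to 6 in Rag2-null cells, 6 to 15 for Rag2-null against total pro-B controls, 1 to 2 and 0 to 2 for the differences of deletion effects, 5 to 10 for both hairpins, 1 to 3 for Ik2709 and 12 to 19 for pre-pro-B against pro-B controls. Over single genes and settings, 1899 values kept direction and call, 155 kept direction and lost the call, and 0 reversed. Where a group was left with 1 library, that library was assumed to vary like the other groups. Pairs of libraries and unknown depth in 4 of them limit what small differences can show.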
